A study of Bos taurus with 6 samples.

Results

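Pools of bovine late morulae that carried replicate number 1 were compared with pools that carried replicate number 2, to describe how pools differ apart from the knockdown. The members are the libraries themselves: 3 replicate 1 pools and 3 replicate 2 pools, which are all 6 libraries of the series, and each replicate 2 pool was set against the replicate 1 pool of its own siRNA group. Genes entered the comparison when they had a symbol and their 6 values averaged 10 or more, which left 12101 of 15371 named entries. A further 2551 entries without a symbol, out of 17922 in all, were left out.

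Each pool held 15 in vitro fertilised Bos taurus embryos collected at day 6, 90 embryos in all. The 3 siRNA groups were embryos injected with a nonspecific siRNA (control), embryos injected to knock down NOTCH1, a receptor of the NOTCH pathway, and embryos injected to knock down RBPJ, the DNA-binding factor through which activated NOTCH receptors act. Every pool, the controls included, therefore came from injected embryos. Nothing in the labels says what a shared replicate number stands for (a fertilisation, a collection day or a sire), so p-values measure only the spread between these libraries.

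The late morula is the stage at which the cells of the embryo have compacted against each other and the outer ones are polarising, before a blastocyst cavity forms. Transcripts laid down in the oocyte have by then largely been degraded and replaced by transcription from the embryo's own genome. The outer cells build apical actin, keratin filaments and junctions on their way to becoming trophectoderm, the inner cells will give the inner cell mass, and bovine embryos store and synthesise large amounts of lipid throughout.

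Values are the authors' normalised abundances, called scaled counts here, one per gene and library. A gene's values are printed for replicate 1 first and replicate 2 second in each siRNA group. A log2 difference is replicate 2 minus replicate 1 on the log2(scaled count + 1) scale, averaged over the 3 siRNA groups, and a fold is that difference on a linear scale. A gene is said to be higher or lower in replicate 2 where limma, fitted with siRNA group as a block, gave a Benjamini-Hochberg adjusted p below 0.05. The libraries held 10365695 to 10815554 scaled counts, and the steps between low values placed their depth at about 9650000 to 13600000 reads. Replicate 1 pools had 9760000 to 13600000 of these reads and replicate 2 pools 9650000 to 10100000; the deepest library was the RBPJ knockdown replicate 1. Genes with a scaled count of at least 1 numbered 14189 to 14385 in replicate 1 pools and 14430 to 14468 in replicate 2 pools. The step was 0.771 in the RBPJ knockdown replicate 1 library, which had the 14189, and 1.022 to 1.086 in the other libraries. A limit of 1 thus left out values of a single step in that library only, so these numbers are not on one footing.

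Genes higher in replicate 2 pools included oocyte transcripts such as MOS and KHDC3L, X-linked genes such as KDM5C, the early response gene EGR1 and the heat shock gene HSPA1A. Genes lower in replicate 2 pools included the lipid synthesis enzymes SCD and FASN, the keratins KRT8 and KRT18 and mitochondrially encoded COX1 and COX2. Of the 12101 genes tested, 335 differed between replicate 2 and replicate 1 (2.77%), 153 of them higher (1.26%) and 182 lower (1.5%) in replicate 2. Most of these differences were modest: the median fold was 1.423 among the higher genes and 1.395 among the lower genes, and 23 higher and 14 lower genes passed a 2-fold change. In 152 of the 153 higher genes and 178 of the 182 lower genes the difference had that sign in all 3 siRNA groups. Over all genes tested 37.7% had one sign in all 3 groups, 18.2% toward higher and 19.5% toward lower values. In 131 of the higher and 145 of the lower genes the 3 replicate 2 libraries did not overlap the 3 replicate 1 libraries, against 8.68% (above) and 9.45% (below), or 18.1% in all, of the genes tested. Calls were more frequent among abundant transcripts, with 110 of 2348 genes called at means from 1000 (4.68%) and 19 of 2355 at a mean of 10 to 50 (0.807%). These calls rest on limma's variance trend: only 2 residual degrees of freedom come from the libraries, against 18.9 contributed by the prior, and without the trend no gene passed (1522 genes at an unadjusted p below 0.05, smallest limma adjusted p = 0.24). With any 1 siRNA group left out, the 335 genes all had the same direction. For those with one sign in all 3 groups this was fixed in advance, so it adds no support. The count was 488 without the control pair (306 lower), 510 without the NOTCH1 knockdown pair (291 higher) and 193 without the RBPJ knockdown pair (89 lower), and 264, 269 and 152 of the 335 genes were among those called. Because the comparison is paired, leaving out 1 library also removes its partner's difference; "without either library" means with the one or the other left out.

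**Figure D1:**
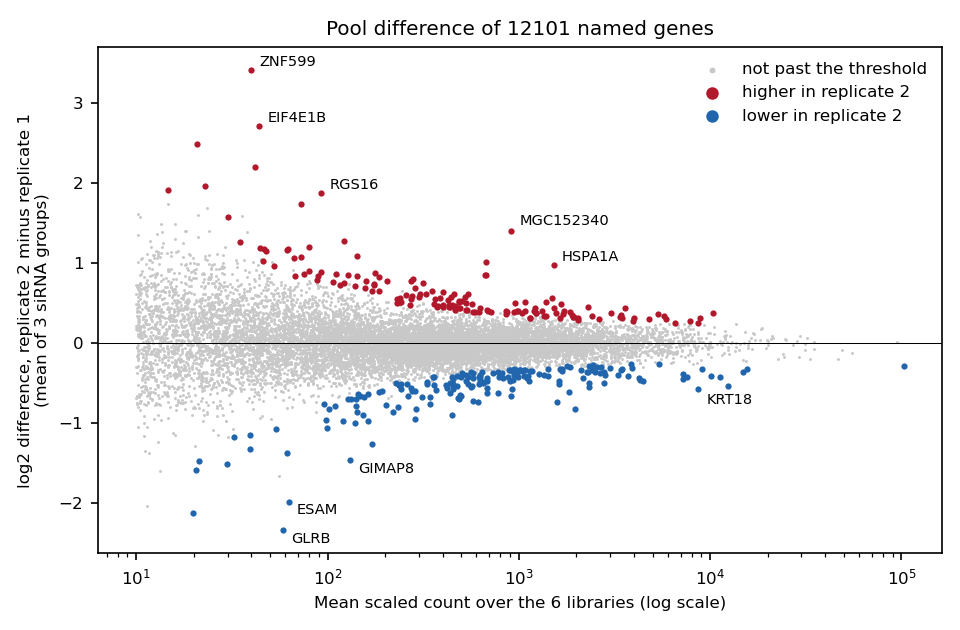
Each point is 1 of the 12101 genes tested, with its mean scaled count over the 6 libraries on a log axis and its log2 difference, replicate 2 minus replicate 1, averaged over the 3 siRNA groups. Red points are the 153 genes higher and blue points the 182 genes lower in replicate 2; the called genes of the largest difference lie at low means, while those averaging 1000 or more mostly differed by well under 2-fold.

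No library was closest to the other library of its own siRNA group. Across the 12101 genes, the Pearson correlation of log2 values was 0.9798 between the control libraries, 0.9852 between the NOTCH1 knockdown libraries and 0.9839 between the RBPJ knockdown libraries. For 5 of the 6 libraries the highest correlation was with a library of another siRNA group and the same replicate number, such as 0.9867 between the NOTCH1 and RBPJ knockdown replicate 1 libraries. The exception was the NOTCH1 knockdown replicate 2 library, which was closest to the RBPJ knockdown replicate 1 library (0.9863), the deepest one. That deepest library was also the closest one to the control replicate 1 library (0.9846) and to the NOTCH1 knockdown replicate 1 library (0.9867). Whether depth had a part in these matches was not tested. On the first principal component, which took 29.76% of the variance, the replicate 1 pools lay at -12.16, -23.45 and -8.864 and the replicate 2 pools at 23.46, 1.788 and 19.22 (control, NOTCH1 and RBPJ knockdown in each case). The replicate 2 pool was thus on the higher side in each siRNA group, and the replicate numbers did not overlap on this axis.

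Over all genes, the replicate number took 27.12% of the sum of squares with 20% of the degrees of freedom, the siRNA group took 40.69% with 40%, and the remainder took 32.18% with 40%. Where genes averaged 1000 or more, the share of the replicate number was 35.34%. The pool differences of the 3 siRNA groups, which share no library, were weakly correlated across genes (genes are not independent replicates): r was 0.15 between control and NOTCH1 knockdown, 0.20 between control and RBPJ knockdown and 0.21 between the knockdowns. From a mean of 1000 upward these values were 0.325, 0.454 and 0.51. The control pools differed most from each other, with 558 genes apart by more than 2-fold, against 400 in the NOTCH1 and 434 in the RBPJ knockdown pools. Most of these genes were scarce: 422, 345 and 354 of them averaged 10 to 50, and 1, 0 and 3 averaged 1000 or more. From a mean of 1000 upward the standard deviation of the log2 differences was 0.225 in the control, 0.170 in the NOTCH1 knockdown and 0.173 in the RBPJ knockdown pools.

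The gene furthest apart was ZNF599, a zinc finger gene, named after its values were seen because its mean lies below the limit of 50 set for the naming of single genes. Its scaled counts were 6.30 and 63.03 in the control, 5.58 and 61.4 in the NOTCH1 knockdown and 5.73 and 98.01 in the RBPJ knockdown pools. Every replicate 2 pool was far above every replicate 1 pool, and the difference was 10.7-fold (log2 difference 3.42, SE 0.35, limma adjusted p = 2.32e-05). EIF4E1B, an oocyte form of the cap-binding protein that was also named after its values were seen, stood at 40.3 and 107 in the control, 3.06 and 42.1 in the NOTCH1 knockdown and 5.39 and 64.9 in the RBPJ knockdown pools (log2 difference 2.72, SE 0.38, limma adjusted p = 0.000487). Its replicate numbers did not overlap, but the control replicate 1 pool was nearly level with the NOTCH1 knockdown replicate 2 pool.

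Of the called genes that averaged 50 or more and had one sign in all 3 siRNA groups, the 12 with the largest difference toward replicate 2 were led by RGS16, a regulator of G protein signalling. RGS16 stood at 65.5 and 225 in the control, 24.5 and 75.4 in the NOTCH1 knockdown and 27.7 and 138 in the RBPJ knockdown pools, a 3.66-fold difference (log2 difference 1.87, SE 0.22, limma adjusted p = 0.000118), and its replicate 2 libraries were all above its replicate 1 libraries. MGC152340 stood at 423 and 1476 in the control, 542 and 876 in the NOTCH1 knockdown and 499.9 and 1635 in the RBPJ knockdown pools (log2 difference 1.40, SE 0.14, limma adjusted p = 2.32e-05). Both genes were higher in replicate 2 in each siRNA group, and the NOTCH1 knockdown pools were the least apart for MGC152340. ARHGEF40, a guanine nucleotide exchange factor, had close values in all 3 groups, 96.7 and 198 in the control, 82.4 and 187 in the NOTCH1 knockdown and 94.1 and 201 in the RBPJ knockdown pools (log2 difference 1.09, SE 0.16, limma adjusted p = 0.000833). The others of the 12 were the oocyte genes BTG4 and KHDC3L, the adaptor DOK4, the neurotrophin receptor NGFR, PLPPR2, the collagen chain COL6A5, the gap junction protein GJA5, the heat shock gene HSPA1A and the X-linked PRRG1, with log2 differences between 0.97 (PRRG1) and 1.74 (BTG4). NGFR and GJA5 overlapped slightly between the replicate numbers, with the RBPJ knockdown replicate 1 pool (64.7 and 72.3) above the lowest replicate 2 pool (60.2 and 72.2).

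In the other direction, under the same conditions, GLRB, the beta subunit of the glycine receptor, was furthest apart. It stood at 85.5 and 6.55 in the control, 126 and 36.6 in the NOTCH1 knockdown and 76.1 and 21.5 in the RBPJ knockdown pools, 5.09-fold lower in replicate 2 (log2 difference -2.35, SE 0.32, limma adjusted p = 0.000351). ESAM, an adhesion molecule of endothelial tight junctions, stood at 55.9997 and 18.5 in the control, 129 and 31.2 in the NOTCH1 knockdown and 119 and 21.6 in the RBPJ knockdown pools (log2 difference -1.99, SE 0.26, limma adjusted p = 0.000325). GIMAP8, a GTPase of the immunity-associated family, stood at 156 and 70.9 in the control, 144 and 60.3 in the NOTCH1 knockdown and 286 and 68.8 in the RBPJ knockdown pools (log2 difference -1.47, SE 0.20, limma adjusted p = 0.000325). In all of these genes each replicate 2 pool was below each replicate 1 pool. The others of the 12 were the intestinal alkaline phosphatase ALPI, the sterol demethylase CYP51A1, the tropomyosin TPM2, the hexokinase-like HKDC1, the kinase STK10, the transporter SLC35G1, the meiosis gene TEX15, the LIM protein CRIP1 and the neuronal filament INA, with log2 differences between -0.91 (INA) and -1.37 (ALPI). ALPI was the only one of these 12 whose replicate numbers overlapped: its RBPJ knockdown pools differed little (74.6 and 62.6), while its NOTCH1 knockdown pools stood at 60.3 and 10.8.

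Transcripts known from the oocyte leaned toward replicate 2. Of 50 genes on this list, 42 were in the table and 38 were tested; 6 were called higher (15.79%, against a background of 1.26% called higher) and none lower, and 31 of the 38 had a positive difference (against 49.5% of all genes). The median log2 difference of the list was 0.41 (0.34 in the control, 0.61 in the NOTCH1 knockdown and 0.11 in the RBPJ knockdown pools), against -0.00226 for all genes tested. As this is a pool of whole embryos, a larger number of cells or embryos that keep a transcript and more transcript per cell cannot be told apart.

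MOS, the kinase that holds the mature oocyte in metaphase, stood at 29.6 and 130.4 in the control, 6.12 and 40.95 in the NOTCH1 knockdown and 8.46 and 35.99 in the RBPJ knockdown pools, 4.62-fold higher in replicate 2 (log2 difference 2.21, SE 0.32, limma adjusted p = 0.00068). KHDC3L, a component of the subcortical maternal complex, stood at 118 and 250.3 in the control, 47.97 and 127 in the NOTCH1 knockdown and 51.6 and 134 in the RBPJ knockdown pools (log2 difference 1.27, SE 0.18, limma adjusted p = 0.000583). For MOS and KHDC3L alike the control pool was the highest within each replicate number, and all replicate 2 libraries lay above all replicate 1 libraries. BTG4, the adaptor that brings the CCR4-NOT deadenylase to maternal mRNA, stood at 107 and 113 in the control, 11.2 and 63.7 in the NOTCH1 knockdown and 17.7 and 124 in the RBPJ knockdown pools (log2 difference 1.74, SE 0.35, limma adjusted p = 0.00893). The BTG4 difference came from both knockdown groups, while the control pools were almost equal, so that the replicate numbers overlapped. BMP15, an oocyte growth factor on the X chromosome, stood at 15.9 and 59.8 in the control, 4.08 and 30.2 in the NOTCH1 knockdown and 6.92 and 20.6 in the RBPJ knockdown pools (log2 difference 1.97, SE 0.40, limma adjusted p = 0.00893). The remaining called members were ZAR1L, a relative of the zygote arrest gene (log2 difference 1.18), and the homeobox factor MSX1 (0.51), and neither overlapped between the replicate numbers. Members whose difference did not pass the test included the linker histone gene H1FOO (1.69), the zona pellucida gene ZP3 (0.27), the growth factor GDF9 (0.39), ZAR1 (-0.26) and NLRP5 (-0.29). Most of these transcripts were scarce, and where a mean of 100 was required the list median was 0.10 and 2 members were called. Replicate 2 pools also had more genes with a scaled count of at least 1, as given above, and whether this has a part in the result was not tested.

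**Figure D2:**
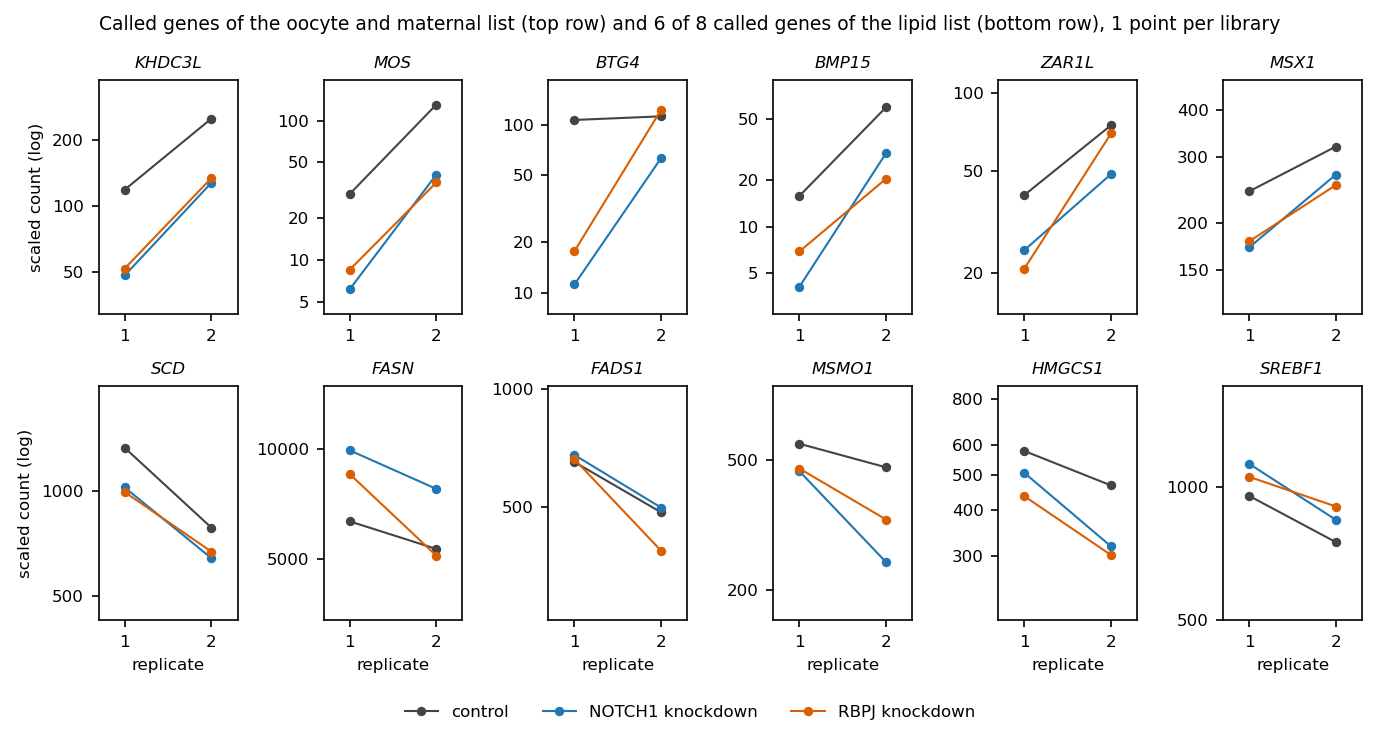
Scaled counts (log axis) of 6 genes of the oocyte and maternal list and 6 of the 8 called genes of the cholesterol and fatty acid list, with 1 point per library and a line joining the replicate 1 and replicate 2 pools of each siRNA group. All lines of the upper genes rise to replicate 2, the control line of BTG4 by very little (107 to 113), and all lines of the lower genes fall.

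Genes of cholesterol and fatty acid metabolism leaned the other way. Of 35 members tested, 8 were called lower (22.86%, against 1.5% of all genes) and none higher, 29 had a negative difference, and 22 were lower in all 3 siRNA groups. The list median was -0.22 (-0.16, -0.29 and -0.29 in the control, NOTCH1 and RBPJ knockdown pools). SCD, the desaturase that makes oleic acid, stood at 1328 and 785 in the control, 1023 and 643 in the NOTCH1 knockdown and 993 and 671 in the RBPJ knockdown pools, 1.58-fold lower (log2 difference -0.66, SE 0.09, limma adjusted p = 0.000325). FASN, the fatty acid synthase, stood at 6344 and 5329 in the control, 9933 and 7784 in the NOTCH1 knockdown and 8555 and 5105 in the RBPJ knockdown pools (log2 difference -0.45, SE 0.08, limma adjusted p = 0.00424). SCD did not overlap between the replicate numbers, whereas FASN did, as its NOTCH1 knockdown replicate 2 value lay above its control replicate 1 value. FADS1, the delta-5 desaturase, stood at 651 and 484 in the control, 679 and 498 in the NOTCH1 knockdown and 662 and 386 in the RBPJ knockdown pools (log2 difference -0.55, SE 0.10, limma adjusted p = 0.00572). Further called members were the sterol synthesis enzymes MSMO1 (-0.56), HMGCS1 (-0.50) and CYP51A1 (-1.08) and the transcription factor SREBF1 (-0.33). INSIG1 (-0.50), SQLE (-0.22) and the transcription factor SREBF2 (-0.13) did not pass, and PMVK (0.28), EBP (0.20) and NPC1L1 (0.31) had positive values. The count of called members was 11 or 12 without either control library, and 3 or 4 without either library of the NOTCH1 or of the RBPJ knockdown.

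**Figure D3:**
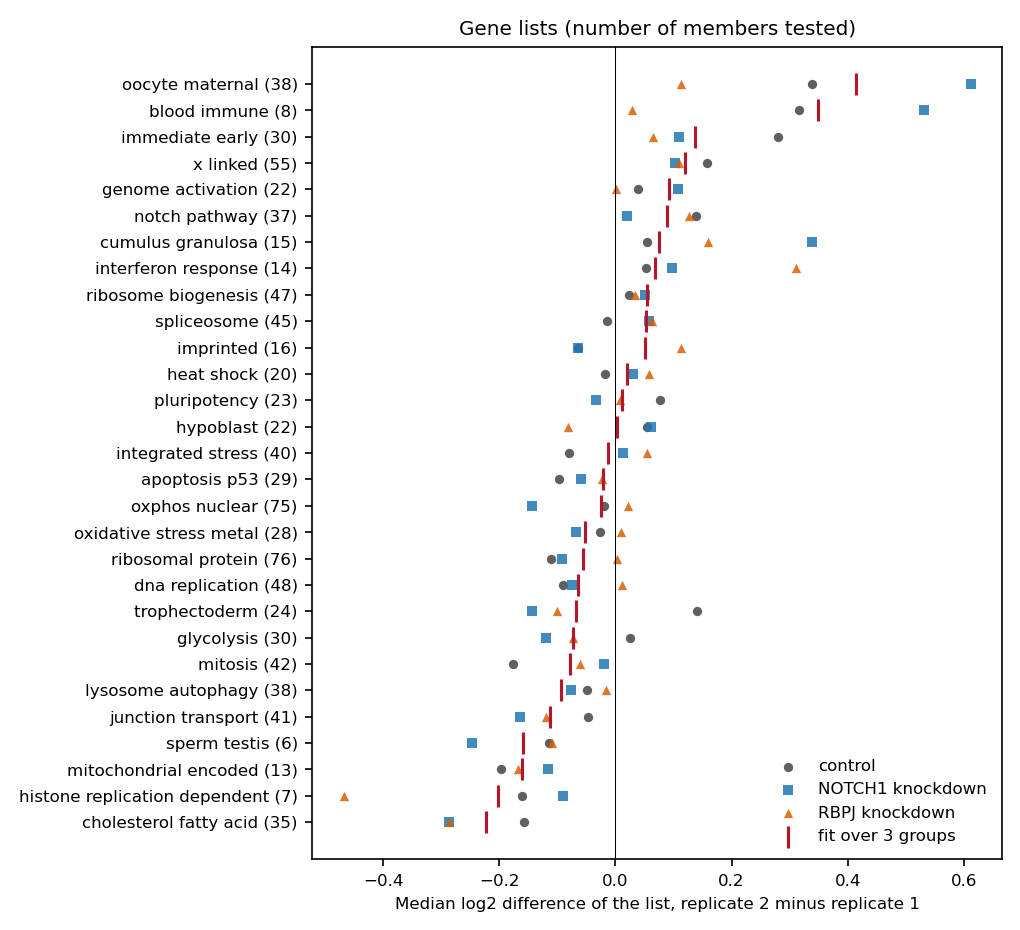
Median log2 difference, replicate 2 minus replicate 1, of 29 gene lists, with the number of members tested in brackets; dots, squares and triangles are the pool differences within each siRNA group and red bars the median of the fitted differences. The oocyte and maternal list lies furthest to the right (0.41) and the cholesterol and fatty acid list furthest to the left (-0.22).

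Genes of the X chromosome leaned toward replicate 2 in each siRNA group. On a list of X-linked genes, 55 were tested, 42 had a positive difference (against 49.5% of all genes), 4 were called higher (7.273%, against 1.26%) and none lower, and the median was 0.12 (0.16, 0.10 and 0.11 in the 3 siRNA groups in the order above). Without either library of the RBPJ knockdown 2 were called, and without the NOTCH1 knockdown replicate 1 library 8. KDM5C, a histone demethylase known to escape X inactivation in several mammals, stood at 4192 and 5837 in the control, 4809 and 6048 in the NOTCH1 knockdown and 5007 and 6049 in the RBPJ knockdown pools (log2 difference 0.36, SE 0.07, limma adjusted p = 0.00712). BEX3, a small brain-expressed X-linked protein, stood at 24.4 and 59.6 in the control, 24.5 and 61.5 in the NOTCH1 knockdown and 40.02 and 75.1 in the RBPJ knockdown pools (log2 difference 1.15, SE 0.26, limma adjusted p = 0.0186). ELF4, an ETS transcription factor, stood at 776 and 1119 in the control, 869.8 and 1014 in the NOTCH1 knockdown and 790 and 1066 in the RBPJ knockdown pools (log2 difference 0.39, SE 0.09, limma adjusted p = 0.0201). In each of these genes every replicate 2 library was above every replicate 1 library. The fourth was the haem synthesis enzyme ALAS2 (0.84). HPRT1 (-0.01), HUWE1 (-0.01) and STAG2 (0.02) showed almost no difference.

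The chromosomes were then compared as a whole, a step added after the list had been seen and given as a description with no test. Chromosomes were taken from RefSeq for 12028 of the 12101 genes by symbol. The 384 genes placed on the X chromosome had a median of 0.18 (0.21, 0.15 and 0.14 in the 3 siRNA groups), while the medians of the 29 autosomes ran from -0.07 to 0.06. Of the X genes 76% had a positive difference, against 37.2% to 62.5% over the autosomes, and 45.3% were higher in all 3 siRNA groups, against 17.2% of autosomal genes. They gave 27 genes called higher (7.03%, where the highest autosome had 2.36%) and 1 called lower, the interleukin receptor IL13RA1 (-0.56). The 27 were 17.6% of all genes called higher, while X genes were 3.19% of the genes matched. The called genes included CT47B1, a cancer/testis family member (447 and 939 in the control, 499 and 617 in the NOTCH1 knockdown and 452 and 1017 in the RBPJ knockdown pools; log2 difference 0.85), the adhesion molecule L1CAM (0.51), the splicing protein PQBP1 (0.50) and the receptor chain IL2RG (0.58). The X share of all chromosomal signal was 3.005 and 3.41% in the control, 2.956 and 3.282% in the NOTCH1 knockdown and 3.141 and 3.424% in the RBPJ knockdown pools. Replicate 2 pools therefore had a higher X share than every replicate 1 pool. Abundant genes showed it too: of 81 X genes averaging 1000 or more, 81.5% had a positive difference and the median was 0.13. The number called higher was 13 or 14 without either RBPJ knockdown library and 40 without the NOTCH1 knockdown replicate 1 library, and the median stayed between 0.14 and 0.19 when any 1 library was left out. Of a list of 17 Y-linked genes, 0 were among the named entries, so that list could not be tested. XIST and the 3 tested genes placed on Y by symbol were not analysed here.

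**Figure D4:**
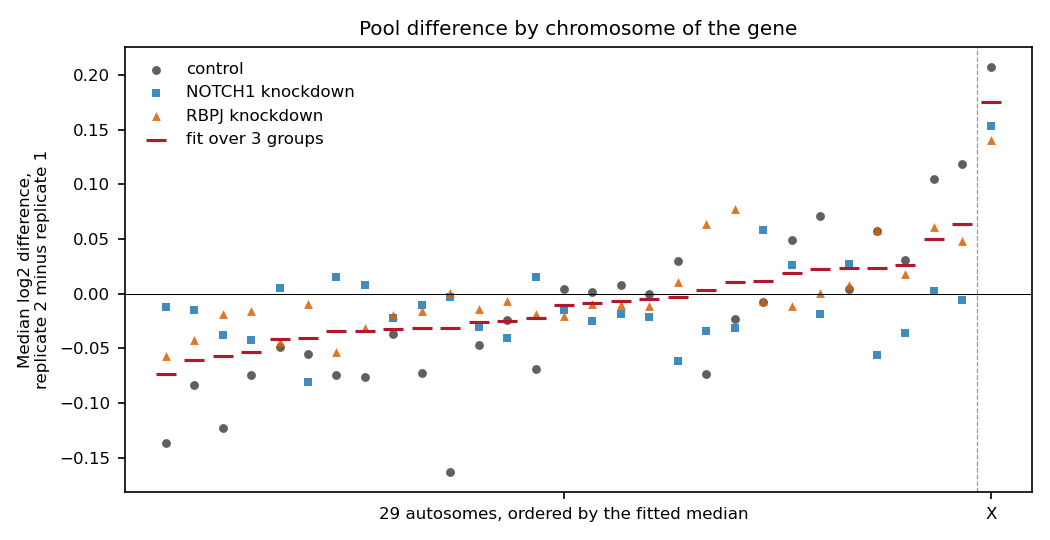
Median log2 difference, replicate 2 minus replicate 1, of the genes of each chromosome, with the 29 autosomes ordered by the fitted median and X at the right; symbols are the 3 siRNA groups and red bars the median of the fitted differences. The X chromosome (0.18) lies above the highest autosome (0.06), and each siRNA group's X value is above all autosome values of its own group.

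Some trophectoderm genes, the keratins KRT8 and KRT18 among them, were lower in replicate 2, while the list did not shift as a whole. Of 24 trophectoderm genes tested, 5 were called lower (against 1.5% of all genes) and none higher. The list median was -0.07 (0.14 in the control, -0.14 in the NOTCH1 knockdown and -0.10 in the RBPJ knockdown pools). Without either RBPJ knockdown library 3 were called, and without either NOTCH1 knockdown library the median was 0.01. The simple epithelial keratins KRT18 and KRT8, which form the intermediate filaments of trophectoderm, stood at 9355 and 6298 in the control, 11454 and 8816 in the NOTCH1 knockdown and 10168 and 5878 in the RBPJ knockdown pools (log2 difference -0.58, SE 0.08, limma adjusted p = 0.000325) and at 11997 and 10630 in the control, 15897 and 12502 in the NOTCH1 knockdown and 16107 and 7578 in the RBPJ knockdown pools (log2 difference -0.54, SE 0.11, limma adjusted p = 0.00893). PTGS2, the inducible prostaglandin synthase, stood at 791 and 504 in the control, 817 and 449 in the NOTCH1 knockdown and 543 and 343 in the RBPJ knockdown pools (log2 difference -0.72, SE 0.10, limma adjusted p = 0.000426). KRT18 and PTGS2 did not overlap between the replicate numbers. KRT8 did, as its NOTCH1 knockdown replicate 2 value (12502) lay above its control replicate 1 value (11997), and its widest gap was that of the RBPJ knockdown pools. The other called members were PLAC8 (-0.54) and the transcription factor GATA3 (-0.44). CDX2 (-0.06), TEAD4 (0.09), TFAP2C (0.14) and GATA2 (-0.16) did not pass the test.

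Among 41 genes of junctions, polarity and fluid transport, 5 were called lower (against 1.5% of all genes) and 1 higher (against 1.26%), 12 had a positive and 29 a negative difference (49.5% of all genes were positive), and the median was -0.11. AQP11, an aquaporin, stood at 286 and 215 in the control, 260.3 and 119 in the NOTCH1 knockdown and 298 and 144 in the RBPJ knockdown pools (log2 difference -0.86, SE 0.15, limma adjusted p = 0.00396). PRKCI, the atypical protein kinase C of the apical domain, stood at 1178 and 872 in the control, 1472 and 1144 in the NOTCH1 knockdown and 1287 and 836 in the RBPJ knockdown pools (log2 difference -0.47, SE 0.09, limma adjusted p = 0.00424). TJP3, a tight junction scaffold, was lower in each siRNA group as well (-0.44). AQP3, a water and glycerol channel, went the other way, at 5587 and 7440 in the control, 5143 and 5910 in the NOTCH1 knockdown and 5047 and 6106 in the RBPJ knockdown pools (log2 difference 0.30, SE 0.07, limma adjusted p = 0.024). The count of lower members was 2 without either RBPJ knockdown library and 10 without either control library.

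Pluripotency genes did not shift together: of 23 tested, 3 were called lower, against 1.5% of all genes (1 without either RBPJ knockdown library), and the median was 0.01. The called genes were the de novo DNA methyltransferases DNMT3B, at 1317 and 1028 in the control, 2724 and 1530 in the NOTCH1 knockdown and 1955 and 968 in the RBPJ knockdown pools (log2 difference -0.73, SE 0.10, limma adjusted p = 0.000325), and DNMT3A (-0.30), and the ETS factor SPIC (-0.41). DNMT3B was lower in replicate 2 in each siRNA group, but its NOTCH1 knockdown replicate 2 value lay above its control replicate 1 value. Of 22 hypoblast genes, LRP2, the endocytic receptor megalin, at 13058 and 10348 in the control, 12987 and 10017 in the NOTCH1 knockdown and 12822 and 8664 in the RBPJ knockdown pools (log2 difference -0.43, SE 0.07, limma adjusted p = 0.00183), and the laminin chain LAMA1 (-0.65) were called lower, and the list median was 0.0031. The 2 hypoblast calls were 9.091% of that list, against 1.5% of all genes. Genome activation genes gave 1 call among 22, HSPA1A (4.545%, against 2.77% of all genes), and a median of 0.09.

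The mitochondrially encoded genes took 3.544 to 3.587% of the signal in replicate 1 pools and 3.046 to 3.349% in replicate 2 pools, with no overlap. Of 13 tested, 10 had a negative difference and 3 were called lower (against 1.5% of all genes): the cytochrome oxidase subunits COX2, at 16389 and 12412 in the control, 16922 and 12275 in the NOTCH1 knockdown and 16670 and 14387 in the RBPJ knockdown pools (log2 difference -0.36, SE 0.07, limma adjusted p = 0.00691), and COX1 (-0.29), and the complex I subunit ND4L (-0.34). Without either RBPJ knockdown library 1 of these was called. Of 75 nuclear genes of oxidative phosphorylation, 3 were called lower (4%, against 1.5% of all genes), the ATP synthase subunits ATP5MC3 (-0.33) and ATP5F1E (-0.34) and the complex I subunit NDUFA2 (-0.36), and the median was -0.02. Among 30 genes of glycolysis, GAPDH, at 8920 and 6260 in the control, 8901 and 7267 in the NOTCH1 knockdown and 8022 and 5800 in the RBPJ knockdown pools (log2 difference -0.42, SE 0.07, limma adjusted p = 0.00191), and the pyruvate kinase PKM (-0.48) were called lower and the hypoxia-responsive NDRG1 (0.49) was called higher. These 3 calls were 10% of the glycolysis list, against 2.77% of all genes.

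Ribosomal protein genes leaned the same way by small amounts: 56 of 76 had a negative difference and the median was -0.06. Over all genes 49.5% had a positive difference. RPS29 (-0.33), RPL15 (-0.32) and RPS13 (-0.27) were called lower (3.947%, against 1.5% of all genes). Ribosome biogenesis genes leaned the other way, with 36 of 47 positive and a median of 0.05, and none was called. Of 42 mitosis genes 36 had a negative difference, with a median of -0.08 and 1 call, the kinetochore protein CENPF (-0.35). No DNA replication gene of 48 was called (median -0.07, with CDC45 at -0.42), nor any of 7 replication-dependent histone genes (median -0.20). Lysosome and autophagy genes had a median of -0.09 over 38 genes and 1 call, the protease CTSD (-0.39). The spliceosome list had 1 call among 45, SF3A2 (0.37). The single calls of the mitosis (2.381%), lysosome (2.632%) and spliceosome (2.222%) lists were near the 2.77% of all genes called.

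Several genes induced by growth factor and stress signalling were higher in replicate 2. Of 30 immediate early genes and targets of MAP kinase signalling, 4 were called higher (against 1.26% of all genes) and none lower, 24 had a positive difference (against 49.5%), and the median was 0.14 (0.28, 0.11 and 0.06 in the 3 siRNA groups). EGR1, an early response transcription factor, stood at 819 and 1193 in the control, 752 and 1278 in the NOTCH1 knockdown and 1098 and 1299 in the RBPJ knockdown pools (log2 difference 0.52, SE 0.10, limma adjusted p = 0.00493). DUSP5, a phosphatase that inactivates ERK, stood at 289 and 595 in the control, 316 and 409 in the NOTCH1 knockdown and 329 and 464 in the RBPJ knockdown pools (log2 difference 0.63, SE 0.13, limma adjusted p = 0.00821). With JUNB (0.40) and FOSL2 (0.46), 2 members of the AP-1 family, these were the called members, and none overlapped between the replicate numbers. Without either RBPJ knockdown library 2 were called. FOS (0.26), JUN (0.25), MYC (-0.17) and ATF3 (-0.04) did not pass.

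Of 20 heat shock genes 3 were called higher, against 1.26% of all genes (1 without either control library, 2 with any other library left out), and the median was 0.02. HSPA1A, the inducible HSP70, stood at 956 and 2607 in the control, 779 and 1170 in the NOTCH1 knockdown and 1254 and 2341 in the RBPJ knockdown pools, 1.97-fold higher (log2 difference 0.98, SE 0.11, limma adjusted p = 7.35e-05). Its co-chaperones DNAJB1 (0.34) and BAG3 (0.39) were also higher, whereas HSPH1 (-0.06), HSP90AA1 (0.05) and the mitochondrial chaperonin HSPD1 (-0.26) did not pass. HSPA1A was highest in the control and RBPJ knockdown replicate 2 pools, and its NOTCH1 knockdown replicate 2 value fell below the RBPJ knockdown replicate 1 value. Among 40 genes of the integrated and unfolded protein stress responses, CEBPB (0.57), the disulfide isomerase PDIA4 (0.40) and the phosphatase subunit PPP1R15A (0.39) were called higher and CTH, which makes cysteine from cystathionine, was called lower (-0.83), with a list median of -0.01 (1 called higher without either RBPJ knockdown library). The 4 calls of this stress list were 10% of it, against 2.77% of all genes. The antioxidant and metal list had 1 call among 28 (3.571%), the peroxiredoxin PRDX1 (-0.46), and the apoptosis list 1 among 29 (3.448%), the p53 target CCNG1 (-0.42). Both shares were near that of all genes. In the interferon list 14 of the 32 genes in the table were abundant enough to test and GBP2 alone was called. This was 7.143% of the list, against 2.77% of all genes, but it is a single gene. GBP2 stood at 184 and 242 in the control, 220 and 421 in the NOTCH1 knockdown and 196 and 415 in the RBPJ knockdown pools (log2 difference 0.80, SE 0.14, limma adjusted p = 0.00355).

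Markers of cell types that could have come along with the embryos were examined in the same way. Cumulus and granulosa markers, the cells that surround the oocyte, gave no call among 15 tested of 22 in the table. Of the 15, 11 had a positive difference (against 49.5% of all genes) and 4 a negative one. AMH (1.11), DCN (0.72) and STAR (0.50), the 3 of smallest p, were higher in replicate 2 in each siRNA group but did not pass (limma adjusted p = 0.0911, 0.188 and 0.21). The summed scaled count of the list was 2710 to 2970 in replicate 1 pools and 2949 to 3261 in replicate 2 pools, most of it from SERPINE2. The granulosa markers INHA, FOXL2 and HAS2 stayed under a mean of 10. Higher maternal transcripts in replicate 2 thus went with slightly higher cumulus and granulosa sums in each siRNA group, and the part of the one in the other was not tested. Sperm markers gave no call among 6 tested of 16 in the table, with sums of 940 to 1107 and 919 to 983, and the protamine genes PRM1 and PRM2 were at or near 0.

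Of 8 blood and immune markers tested, 4 were called higher (against 1.26% of all genes): the globin genes HBA, at 976 and 1344 in the control, 1067 and 1380 in the NOTCH1 knockdown and 1052 and 1366 in the RBPJ knockdown pools (log2 difference 0.40, SE 0.08, limma adjusted p = 0.00893), and HBG, at 406 and 958 in the control, 271 and 1075 in the NOTCH1 knockdown and 714 and 624 in the RBPJ knockdown pools (log2 difference 1.01, SE 0.22, limma adjusted p = 0.0137), the receptor CSF1R (0.37) and ALAS2. Without either control library, or without the RBPJ knockdown replicate 2 library, 2 were called. Globin genes include near-identical copies, so their counts could be shared between them. HBG was nearly equal in the RBPJ knockdown pools, with the replicate 1 pool the higher, and so overlapped. The summed markers stood at 2402 to 3194 in replicate 1 pools and 3668 to 4416 in replicate 2 pools. The leukocyte markers CD3E, CD79A and TYROBP were at or near 0 (at most 3.27), PTPRC was at most 11.3, and the adult globin HBB lay between 1.06 and 8.63. Among 16 imprinted genes GNAS was called lower (-0.50) and PHLDA2 higher (0.77), 12.5% of the list against 2.77% of all genes.

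The targeted genes were compared in all pools. RBPJ stood at 447 and 391 in the control, 361 and 399.6 in the NOTCH1 knockdown and 121 and 94.5 in the RBPJ knockdown pools, so that both RBPJ knockdown pools were below all other libraries and the replicate numbers differed little (log2 difference -0.13, limma adjusted p = 0.675). NOTCH1 stood at 69.6 and 139.8 in the control, 48.03 and 49.5 in the NOTCH1 knockdown and 50.02 and 125 in the RBPJ knockdown pools. The NOTCH1 knockdown pools were alike and the lowest of their replicate number. The control pools were further from each other than the control replicate 1 pool was from the NOTCH1 knockdown pools, and the RBPJ knockdown replicate 1 pool lay close to them too. Over the 3 groups the NOTCH1 difference between replicate numbers did not pass (log2 difference 0.78, SE 0.24, limma adjusted p = 0.0868). Of 37 NOTCH pathway genes tested, 1 was called (2.703%, near the 2.77% of all genes). It was HES7, a transcriptional repressor of the HES family, at 8.22 and 62.5 in the control, 2.17 and 10.9 in the NOTCH1 knockdown and 4.39 and 35.9 in the RBPJ knockdown pools (log2 difference 2.49, SE 0.45, limma adjusted p = 0.00424). HES1, the usual target of NOTCH in many tissues (0.10), HEY1 (0.50), NOTCH2 (-0.40) and NOTCH3 (0.75) did not pass, and the list median was 0.09.

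Some genes were far apart in the pools of 1 siRNA group and less so, or in the opposite direction, in the others. They are given as a description, since each group has a single pair of libraries. IGFBP5, which binds insulin-like growth factors, stood at 235 in the control replicate 1 pool and at 12.3 to 25.5 in all other pools. TACR3, a tachykinin receptor, stood at 156 in the RBPJ knockdown replicate 1 pool and at 22.5 to 69.8 elsewhere. CYP1B1, a cytochrome of the aryl hydrocarbon receptor pathway, stood at 227 and 101 in the control, 23.1 and 73 in the NOTCH1 knockdown and 66.7 and 93.6 in the RBPJ knockdown pools. TMC4 and ALPI show the reverse, in that 1 group had almost no difference where the others had a large one: TMC4 stood at 74.997 and 78.5 in the control, 445 and 124 in the NOTCH1 knockdown and 244 and 58.5 in the RBPJ knockdown pools.

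**Figure D5:**
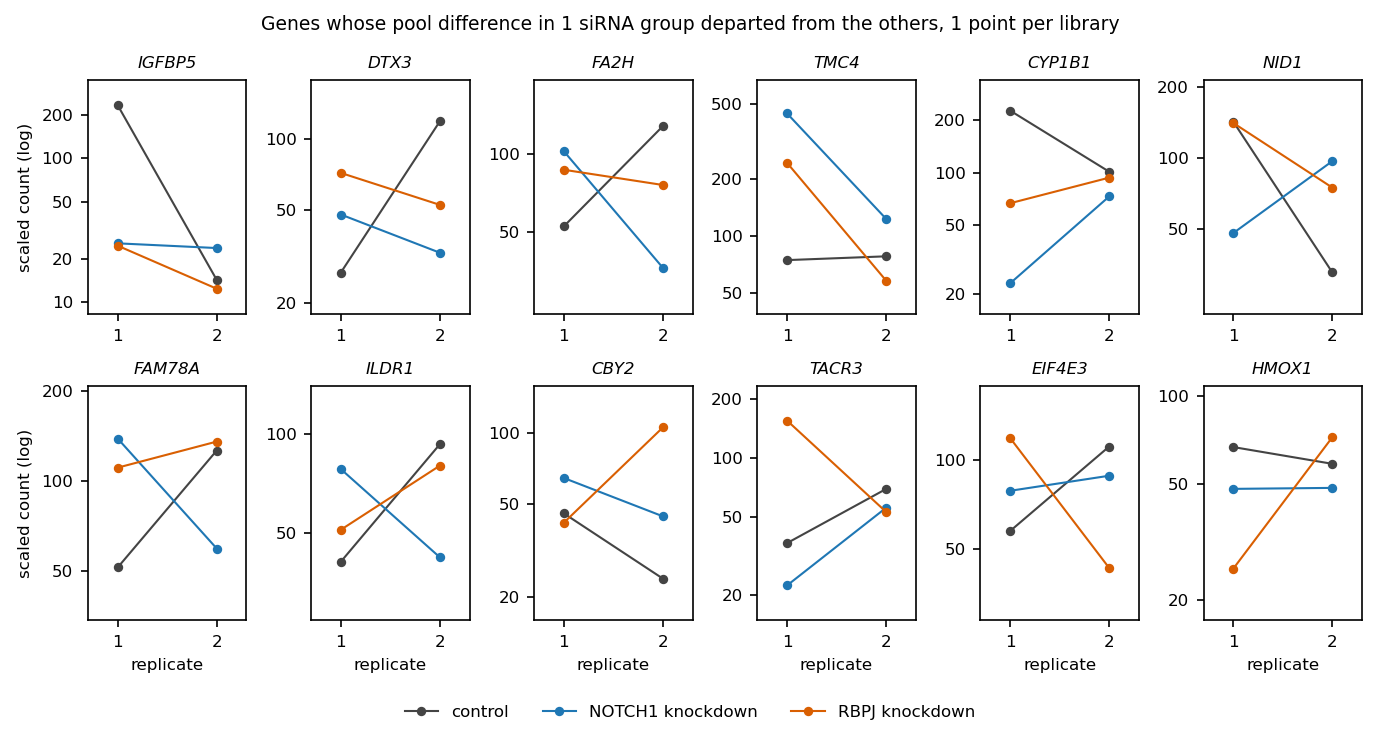
Scaled counts (log axis) of 12 of the genes whose replicate 2 minus replicate 1 difference in 1 siRNA group departed most from the mean of the other groups, with 1 point per library and a line for each siRNA group. BTG4, ALPI and a repeated H2B entry, named by the same rule, are not drawn. The IGFBP5 control replicate 1 pool (235) and the TACR3 RBPJ knockdown replicate 1 pool (156) stand far above the other 5 libraries of their genes.

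The knockdown comparisons were fitted with and without the replicate number. Without it, limma called 0 of 12101 genes between NOTCH1 knockdown and control (881 at an unadjusted p below 0.05, 7.28%) and 1 between RBPJ knockdown and control (0.00826%). With the replicate number added as a block, 135 (1.12%) and 12 (0.0992%) were called. The labels do not say that the number marks a shared day or batch, so the block is an alternative and not the design of the study.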

How the data were processed

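PolyA RNA of 6 pools of 15 embryos was sequenced. Salmon 0.14.1, DESeq2 and the build ARS-UCD1.2 are named, without roles, in the submitters' processing notes. The authors deposited 1 normalised signal value per gene and library; per the values, 85.92 to 87.44% of low values are whole multiples (tolerance 0.1) of a library's step, so reads were not recovered and depth is approximate, and no count test was run.

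The values were tested as log2(value + 1) with limma 3.58.1 in R 4.3.3 (variance trend, siRNA group as block, replicate number as term, Benjamini-Hochberg over 12101 genes); the knockdowns were fitted with siRNA group alone. The script was tested on simulated data. Entries that repeat a symbol (57) were kept apart. Groups and replicate numbers come from the labels.

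Single genes were named by rule: the 12 called genes of largest change in each direction with a mean of at least 50 and one sign in all 3 groups, up to 4 called members per list by p (or the 3 of smallest p), NOTCH1 and RBPJ, and 3 genes per direction and group that departed most from the other groups. The members, the 30 gene lists and the tests were chosen with earlier results of these data known. Other members named with values, chosen after values were seen, are familiar or called members of a list. Not every list member is reported here. Chromosomes come from RefSeq (ARS-UCD2.0), another build, so no coordinates are given. Promoter motifs were not analysed here, for want of sequence of the authors' build. Alternatives were other pseudocounts, filters, scalings, moderation, thresholds, blocks and left-out libraries.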

Additional observations from a re-analysis of the deposited data

Results flagged for a closer look

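Among the genes that departed most in 1 siRNA group, chosen by the rule for named genes, 9 had a pool difference there of the opposite sign to both other groups, with each of the 3 differences at least 0.1 in size; opposite signs as such are common, since 37.7% of all genes had one sign in all 3 groups. Each group has 1 pair of libraries, so none of these differences was tested. In the control pools DTX3, a Deltex family gene, differed by 2.1 on the log2 scale (-0.53 and -0.44 in the NOTCH1 and RBPJ knockdown pools), the fatty acid hydroxylase FA2H by 1.26 (-1.46 and -0.19) and CYP1B1 by -1.16 (1.62 and 0.48). In the NOTCH1 knockdown pools the basement membrane protein NID1 differed by 0.997 (-2.09 in the control and -0.90 in the RBPJ knockdown pools), FAM78A by -1.21 (1.29 and 0.29) and the tricellular junction protein ILDR1 by -0.87 (1.16 and 0.63). In the RBPJ knockdown pools CBY2 differed by 1.33 (-0.90 in the control and -0.53 in the NOTCH1 knockdown pools), TACR3 by -1.53 (0.90 and 1.28) and the cap-binding protein EIF4E3 by -1.44 (0.94 and 0.17).

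The median of the trophectoderm list was 0.14 in the control pools and -0.14 in the NOTCH1 knockdown pools, with -0.10 in the RBPJ knockdown pools; this difference was not tested either.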

How the results depend on the processing

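None of the 81 called genes named by rule reversed under any alternative run, nor did the medians of the maternal, lipid and X-linked lists. Leaving out a group or library could not reverse a gene with one sign in all 3 groups. Of 30 medians 8 lay near 0 and changed sign under some alternative: the heat shock, hypoblast, imprinted, integrated stress, interferon, nuclear oxidative phosphorylation, pluripotency and trophectoderm lists, the imprinted one most (-0.08 without either RBPJ knockdown library). The count of genes differing between the replicate numbers fell from 335 to 132 with no filter on low values (51 higher, 81 lower), to 114 at a threshold of 0.01 (45 and 69), to 8 without siRNA group as a block (4 and 4) and to 0 without the variance trend (0 and 0), and was 607 at a threshold of 0.1 (285 and 322). Without the trend RBPJ knockdown against control also gave 0. Other scalings, pseudocounts, the robust option and a mean minimum of 100 gave 321 to 375 calls; quantile normalisation split them 168 higher and 166 lower. With both libraries of a group left out, 488 (306 lower), 510 (291 higher) and 193 (89 lower) genes were called without the control, NOTCH1 and RBPJ knockdown pair. Leaving out each library in turn gave 193 to 513 calls (104 to 295 higher, 84 to 313 lower), 0 to 1 for NOTCH1 knockdown and 1 to 3 for RBPJ knockdown, where the lone sample of an arm is assumed to vary like the others. The correlations between the pool differences of control and NOTCH1 knockdown, control and RBPJ knockdown, and the 2 knockdowns were 0.0778, 0.0857 and 0.0866 with no filter and 0.246, 0.369 and 0.338 at a mean of at least 100; the first was 0.115 with a pseudocount of 0.1 and the second 0.2495 with a pseudocount of 10. The maternal list median was 0.0963 at a mean of at least 100. With the replicate block the knockdown counts were 135 and 12; with only 2 numbers a pairing cannot be established from the data. Of these 81 genes, 0 were called without the trend, 4 without the siRNA group block, 45 with no filter, 61 at a mean of at least 100, 77 with quantile normalisation and 52 to 69 with a library left out. Where a count changed, the cause was not tested. Depth limits genes near the minimum of 10, which is about 10 reads. The planned count of promoter motifs was not run.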
